A study of Mus musculus with 6 samples.

Results

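Semaphorins, ephrins, slits and netrins are the classical guidance cues, secreted or membrane-bound proteins that steer growing axons, blood vessels and migrating cells through receptors on the cell surface. The genes described here are those cues and their receptors, taken by gene symbol: the semaphorins of classes 3 to 7, the plexins and neuropilins, the Eph receptors and ephrins, the slits with their Robo receptors, and the netrins with their Unc5 receptors. These genes were chosen with earlier results of these data known. The deposited table held 49 of them among 25189 gene symbols, 30 ligands and 19 receptors. Other members of these families were not analysed here.

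The 6 RNA-seq libraries carry the labels kidney, C57BL/6, wild type, male and day 2. Of these, 3 are from ischaemia and reperfusion (I/R), in which blood flow to the kidney is stopped and then restored, and 3 are from I/R with C9, which the design text gives as chemerin-9, a short peptide agonist of the chemerin receptor. Both groups carried the injury, and no uninjured group was analysed here. The labels disagree on these 3: their titles all read C9, whereas their treatment fields read C9, C10 and C11. They were taken as replicates of one treatment from the titles, which the treatment fields do not bear out. Columns headed IC were taken as these libraries because the letters are the initials of I/R and C9. No label states that reading, and the descriptions of the 3 samples name libraries beginning with S instead, so every fold change rests on it. No label ties a library to a separate animal, so p-values here measure only the spread between libraries, which may be technical. The batch value differs for every library, so batch and treatment cannot be told apart.

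Semaphorins signal through plexins, either directly or, for most of the secreted class 3, with a neuropilin as the binding partner, and the plexin then switches off small GTPases and loosens the cell's hold on its matrix. Ephrins and Eph receptors both sit in membranes and signal into both touching cells, with A-type ephrins on a lipid anchor and B-type ephrins spanning the membrane. Slits repel cells through Robo, and netrins, which resemble laminins, attract through DCC-type receptors or repel through Unc5. In the kidney, Slit2 and Robo2 are known for placing the outgrowth of the ureteric bud, semaphorin 3A and its neuropilin for the filtration barrier, and ephrin-B2 with EphB4 for the identity of arteries and veins.

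The promoters of 4 genes are shown because the results turn on them: Sema3c had the largest fall among these genes, Slit2 had the smallest adjusted p of the genes that rose, and ephrin-B2 and its receptor EphB4 moved in opposite directions. Each line gives the 250 bases before the start of the gene in RefSeq, assembly GRCm38.p6, 5′ to 3′ on the strand of the gene. Gene coordinates elsewhere are from GENCODE, which starts Sema3c and Slit2 farther upstream, so the Sema3c window lies wholly inside the GENCODE gene and the Slit2 window ends inside it. Capitals mark matches on either strand to the GC box (GGGCGG or CCGCCC), the CCAAT box (CCAAT or ATTGG), the TATA box (TATAAA or TTTATA) and the AP-1 site (TGACTCA or TGAGTCA).
Sema3c (chr5:17574566-17574815, plus strand): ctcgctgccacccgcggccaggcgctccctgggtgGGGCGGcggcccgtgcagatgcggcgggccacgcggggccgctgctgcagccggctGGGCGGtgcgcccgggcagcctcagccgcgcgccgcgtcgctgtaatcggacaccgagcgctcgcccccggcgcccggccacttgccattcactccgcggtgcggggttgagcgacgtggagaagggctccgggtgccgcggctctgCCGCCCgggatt
Slit2 (chr5:47982905-47983154, plus strand): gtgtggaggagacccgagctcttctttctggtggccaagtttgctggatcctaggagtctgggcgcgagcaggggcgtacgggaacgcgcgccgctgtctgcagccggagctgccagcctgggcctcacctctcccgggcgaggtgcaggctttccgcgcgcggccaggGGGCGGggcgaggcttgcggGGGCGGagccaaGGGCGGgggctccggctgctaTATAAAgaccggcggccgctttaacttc
Efnb2 (chr8:8661243-8661492, minus strand): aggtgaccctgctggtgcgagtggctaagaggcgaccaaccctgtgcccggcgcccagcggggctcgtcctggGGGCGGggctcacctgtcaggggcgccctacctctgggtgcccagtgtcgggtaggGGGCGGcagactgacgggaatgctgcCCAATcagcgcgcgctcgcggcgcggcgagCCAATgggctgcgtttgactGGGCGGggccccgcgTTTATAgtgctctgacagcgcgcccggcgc
Ephb4 (chr5:137349859-137350108, plus strand): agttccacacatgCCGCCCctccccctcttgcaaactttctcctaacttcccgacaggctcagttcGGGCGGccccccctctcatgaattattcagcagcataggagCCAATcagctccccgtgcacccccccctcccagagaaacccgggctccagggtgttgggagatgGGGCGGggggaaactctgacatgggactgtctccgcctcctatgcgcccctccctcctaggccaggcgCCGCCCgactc
All 4 windows held GC boxes, 3 each in Sema3c, Slit2 and Efnb2 and 4 in Ephb4, with a GC content of 78.4%, 69.6%, 72.0% and 64.0% against a median of 52.0% over all RefSeq promoters of this length. The TATA box was found in Slit2 and Efnb2 and the CCAAT box in Efnb2 and Ephb4. None of the 4 windows held the AP-1 letters, which says only that they are not in these bases. Among the 43 of the 49 genes with a promoter entry, 35 (81.4%) held a GC box, against 32.9% of all 27025 genes with an entry, which include non-coding genes. A CCAAT box was present in 9 (20.9%, against 34.5%), a TATA box in 2 (4.65%, against 13.0%) and an AP-1 site in 1 (2.33%, against 4.43%). A match is a description of the letters, not of a bound site.

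The libraries held 11217252 to 16938301 counts. The labelled tissue was checked against marker genes. Of 18 nephron markers, 9 had a row, with library medians of 2.35 to 3.22 CPM (each gene's counts divided by the scaled library total, in CPM units). Of these 9, 4 averaged under 1 CPM, among them Aqp2, of the collecting duct, at 0 to 0.174 CPM. Aqp1 ranged from 15.7 to 19.8 CPM and Pax8 from 26.2 to 46.8 CPM. Of 10 endothelial markers 5 had a row, 4 of them averaging under 1 CPM, Pecam1 at 0 to 0.737 CPM among them. Of 13 neuron and Schwann cell markers 4 had a row, and 2 of these averaged under 1 CPM. Of 12 fibroblast and pericyte markers 9 had a row, with library medians of 33.4 to 51.4 CPM and 1 averaging under 1 CPM. They differed widely, with Vim at 838 to 1407 CPM and Dcn at 1.76 to 2.80 CPM. Dividing-cell markers had library medians of 216 to 228 CPM, and 3 of the 6 fell and none rose, with summed levels of 3454 to 3605 CPM in I/R against 3279 to 3369 CPM after chemerin-9. The genes that fell were Mki67 (1050 ± 22.4 to 938 ± 14.4 CPM), Birc5 and Aurkb. The most abundant of the 6, Top2a (1752 ± 46.8 to 1757 ± 45.4 CPM), did not pass the test described below, nor did Ccnb1 and Cdk1. Of all tested genes 26.1% were lower, and 58.5%, taken singly, did not overlap between the groups. By their medians, nephron and endothelial markers were thus low beside those of dividing cells and fibroblasts, though Pax8 was above Dcn in every library. The check did not bear out the mix of cells of a whole kidney, and which cells the libraries hold was not tested. An 18S gene took 0.381% to 0.517% of counts under I/R alone, against 0.261% to 0.306% after chemerin-9, and mitochondrial genes took 2.81% to 2.94% against 2.56% to 2.64%. The part of these in the results was not tested.

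Of the 49 guidance genes, 43 passed the filter on low counts and were tested with edgeR's quasi-likelihood test, with Benjamini-Hochberg adjustment over all 14184 genes tested. Fold changes are chemerin-9 over I/R, with standard errors (SE). Among the genes that passed, semaphorin 3C and semaphorin 6C fell most, ephrin-B3 and EphA1 rose most, and the abundant cue Slit2 and the co-receptor neuropilin 1 rose while the receptors Unc5b, EphB4 and plexin B2 fell. At an adjusted p under 0.05, 19 changed, of which 8 rose and 11 fell after chemerin-9. These make up 44.2% of the 43, where 51.7% of all tested genes changed, 25.6% higher and 26.1% lower, so the share is no larger than the background. At least 1.5-fold, 5 of the 43 changed, 2 higher and 3 lower, against 15.9% of all tested genes, 8.18% higher and 7.76% lower. The 3 libraries of one group lay outside the range of the other 3 for 25 of the 43, 12 higher and 13 lower, against 58.5% of all tested genes, 29.3% higher and 29.2% lower. The median log2 fold change was -0.015, against -0.0037 over all tested genes. Of 25 tested ligands 5 rose and 6 fell, and of 18 tested receptors 3 rose and 5 fell. A difference between these shares was not tested. The counts per family and per list below stand beside the same shares of all tested genes, and no difference from those shares was tested. In bulk RNA, fewer cells of a type and less RNA per cell cannot be told apart.

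**Figure D1:**
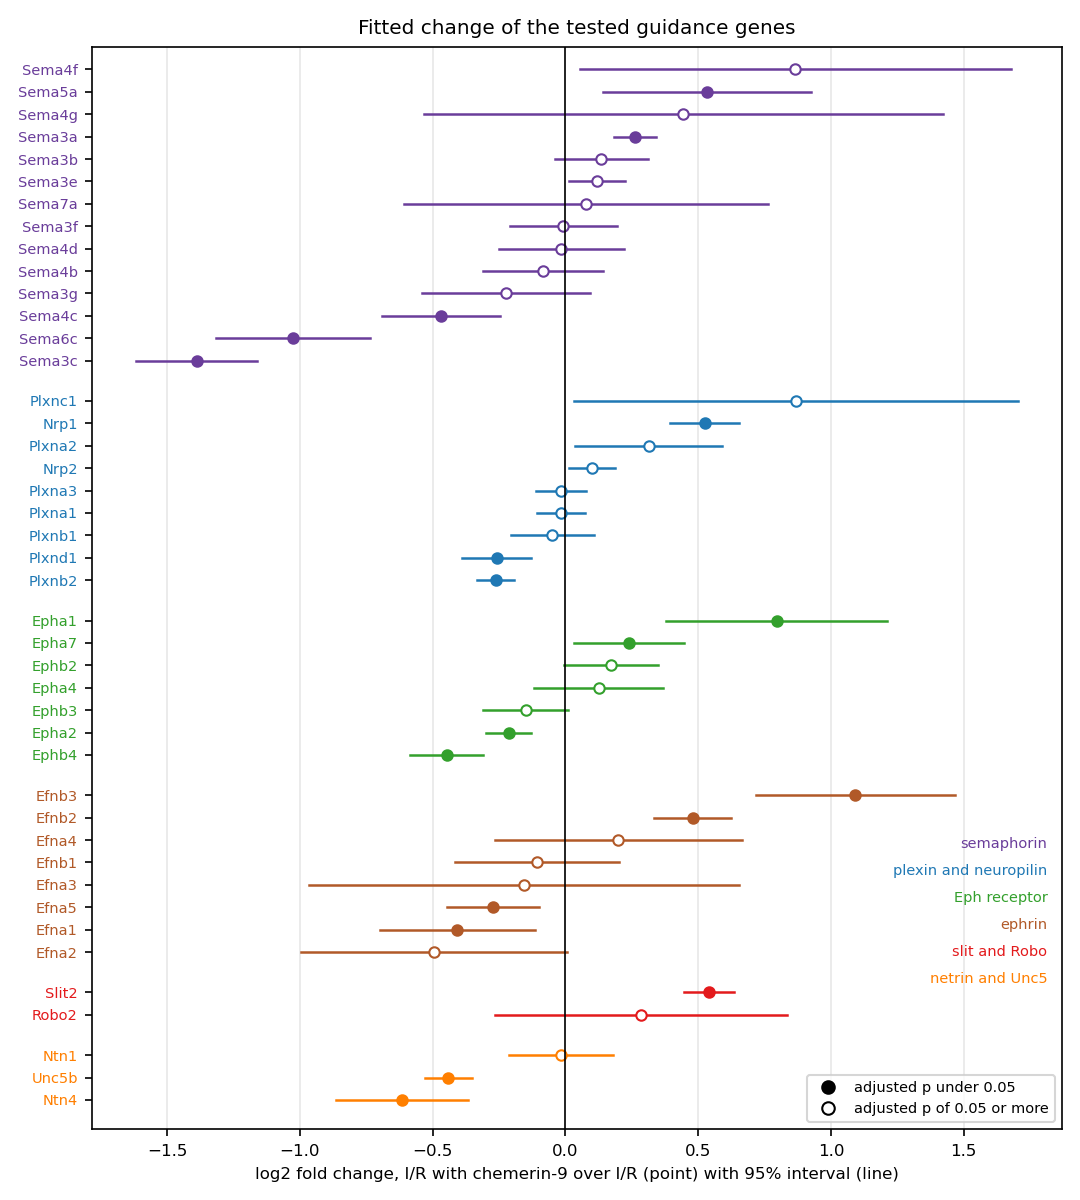
Fitted log2 fold change (horizontal axis, chemerin-9 over I/R) of the 43 tested guidance genes, one row per gene and coloured by family, with the 95% interval from the edgeR fit as a line and filled points at an adjusted p under 0.05. Sema3c (-1.39) and Sema6c (-1.03) lie farthest to the left and Efnb3 (1.09) farthest to the right of the filled points, and each family but slit and Robo, with 1 filled point, and netrin and Unc5, where both filled points lie to the left, has filled points on both sides of 0.

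Levels of different genes were compared per length, as CPM per kb of the principal GENCODE transcript. Plxnb2, a receptor of class 4 semaphorins, was the most abundant at 103 CPM per kb over the 6 libraries, and made up 73.7% ± 0.524 in I/R and 70.9% ± 0.584 with chemerin-9 of the plexin total (SD, n = 3 each). Epha2, the main receptor of ephrin-A1, followed at 50.5, Nrp2 at 37.0, Sema3a at 24.8, Slit2 at 24.1 and Unc5b at 17.9 CPM per kb. The ranges over libraries of Sema3a (22.1 to 27.5) and Slit2 (18.2 to 28.8) overlapped, so their order is not fixed. Across all tested genes with a transcript length the median was 9.75 and the upper quartile 25.1 CPM per kb, so the first 3 lay above the upper quartile of all genes. The most abundant ephrin was Efnb2 at 7.92 CPM per kb, with a range over libraries of 6.27 to 9.52 that overlapped that of Efna5 (5.25 to 7.04). The class 3 semaphorins other than Sema3a lay between 1.74 (Sema3g) and 10.4 (Sema3e) CPM per kb.

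Receptors and ligands of one pathway differed widely in level. Robo2, the Slit receptor with a row, held 0.434 CPM per kb beside 24.1 for Slit2. The netrins Ntn1 and Ntn4 held 2.74 and 2.90 beside 17.9 for Unc5b. Plxnc1, the receptor of semaphorin 7A, and Sema7a itself were both weak, at 0.165 and 0.435. The other Robo and Unc5 receptors and DCC were not analysed here.

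**Figure D2:**
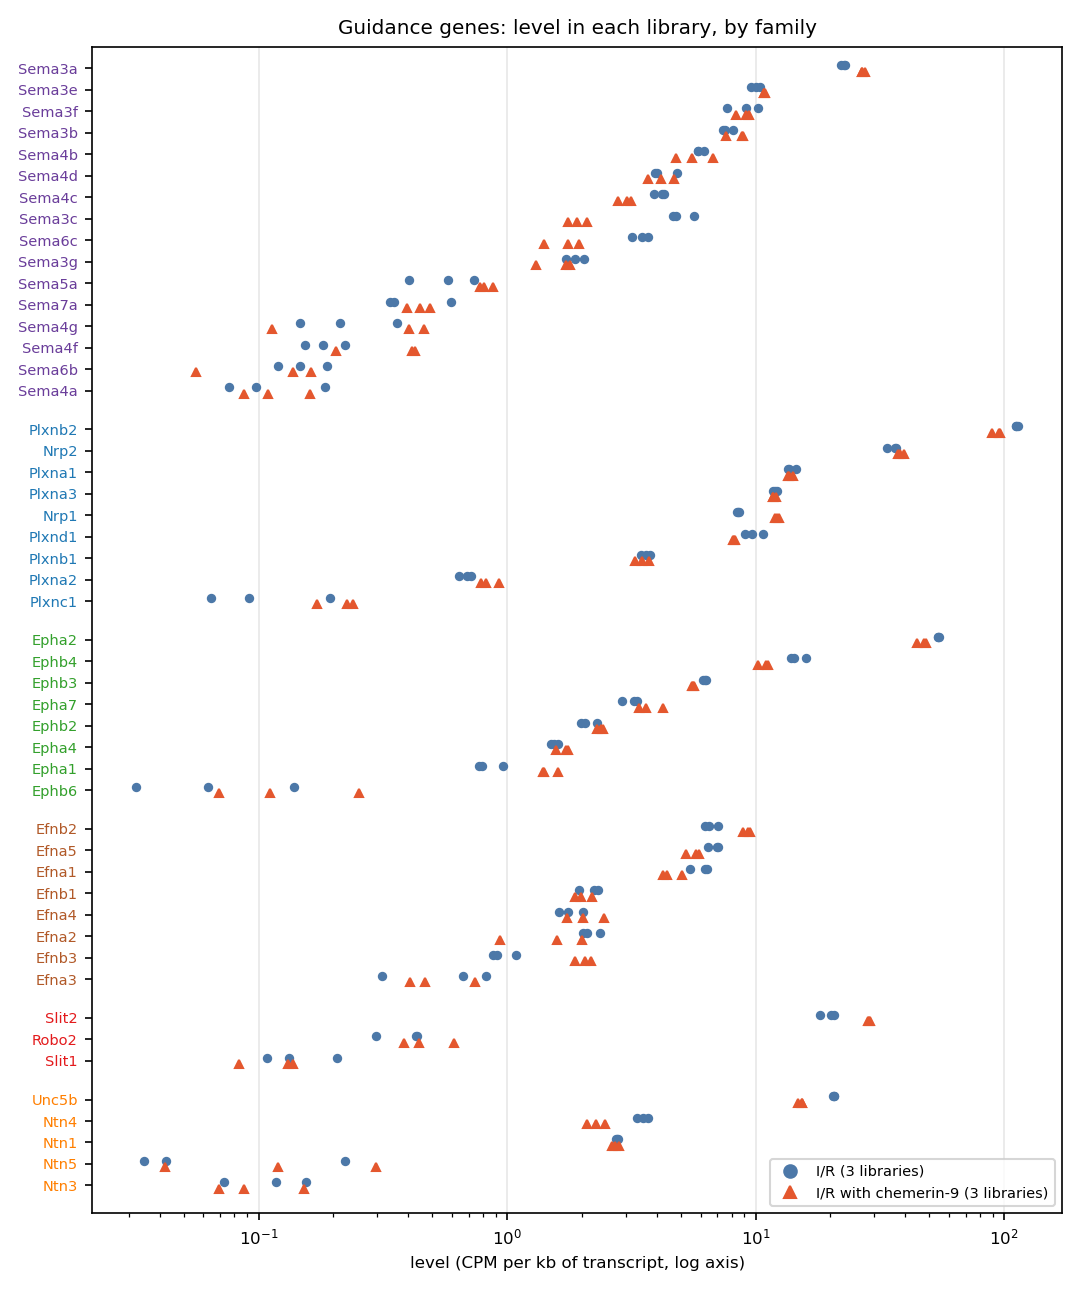
Level of each of the 49 guidance genes (rows, grouped by family and ordered by mean) in CPM per kb of transcript on a log axis, with 1 circle per I/R library and 1 triangle per chemerin-9 library. Plxnb2 lies near 100 (mean 102.7) and Epha2 next at 50.5, while Robo2, Plxnc1 and the 6 genes under the count filter are among those under 1.

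Among the semaphorins, 14 of 16 were tested, 2 rose and 3 fell. Sema3c, a secreted semaphorin that acts through neuropilins and plexin D1 and is needed for the outflow vessels of the heart, was counted at 31, 25.6 and 26.3 CPM in the I/R libraries and 10.5, 9.65 and 11.5 CPM with chemerin-9. The groups were far apart, with every chemerin-9 library below every I/R library, and the gene fell to 0.382 of its I/R level (edgeR log2 fold change -1.39, SE 0.11, adjusted p = 6.35e-08; chr5:17574281-17730268, GRCm38). Sema6c, a membrane-bound semaphorin of the class that signals through A-type plexins, had 13.7, 14.6 and 12.6 CPM in the I/R libraries and 7.67, 6.93 and 5.53 CPM with chemerin-9. It too fell without overlap (edgeR log2 fold change -1.03, SE 0.14, adjusted p = 1.66e-05). Sema4c, a membrane-bound ligand of plexin B2, had 15.1, 16.4 and 16.6 CPM in the I/R libraries and 11.8, 12.2 and 10.8 CPM with chemerin-9. It fell by less (edgeR log2 fold change -0.47, SE 0.10, adjusted p = 0.0015), and 7.3% of its exonic bases are shared with a gene on the opposite strand that averaged 0.119 and 0.325 CPM.

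Sema3a, the founding repellent of this class, which binds neuropilin 1, was the most abundant semaphorin and had 134, 136 and 131 CPM in the I/R libraries and 159, 159 and 163 CPM with chemerin-9. All 3 chemerin-9 libraries were above all 3 I/R libraries and the rise was small (edgeR log2 fold change 0.26, SE 0.04, adjusted p = 3.71e-05). After removal of a trend with GC content and length its log2 fold change was 0.11 (adjusted p = 0.0103, range over the alternatives 1.12e-07 to 0.0103). A transcript of another gene, Gm43431, matches Sema3a at 95% identity or more, so the Sema3a counts are uncertain. Sema5a, a membrane protein with thrombospondin repeats, had 6.26, 7.95 and 4.37 CPM in the I/R libraries and 9.50, 8.40 and 8.74 CPM with chemerin-9. Its I/R libraries were spread widely, with I/R replicate 3 lowest, and the groups did not overlap (edgeR log2 fold change 0.53, SE 0.18, adjusted p = 0.0242). Without I/R replicate 3 its log2 fold change was 0.31 (adjusted p = 0.103), and the call was also lost without chemerin-9 replicate 1 (0.0817), without chemerin-9 replicate 3 (0.0641), with DESeq2 (0.0545) and after removal of the trend on GC and length (0.0756), with adjusted p-values from 0.00314 to 0.103 in the 14 alternatives.

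Within class 3, Sema3a rose and Sema3c fell. On the per-length scale Sema3c made up 8.94% ± 0.607 in I/R and 3.26% ± 0.256 with chemerin-9 of the class total, and Sema3a 40.1% ± 1.602 in I/R and 46.0% ± 1.02 with chemerin-9 (SD, n = 3 each). The class total itself held 56.2 ± 2.11 CPM per kb in I/R and 58.8 ± 1.87 with chemerin-9. Sema3a, Sema3e and Sema3c lie in that order on chromosome 5, with 422.7 kb between Sema3a and Sema3e and 3317.6 kb between Sema3e and Sema3c. Of these neighbours Sema3e, the ligand that binds plexin D1 without a neuropilin, had 69.0, 71.3 and 65.5 CPM in the I/R libraries and 74.4, 74.8 and 74.3 CPM with chemerin-9, without overlap, and did not pass (edgeR log2 fold change 0.12, SE 0.05, adjusted p = 0.0543). Sema3b and Sema3f, which bind neuropilin 2 and lie 72.3 kb apart on chromosome 9, did not pass either, with log2 fold changes of 0.14 (95% interval -0.04 to 0.31) and -0.01 (-0.21 to 0.19). The direction of Sema3f turned under 6 of its 14 alternatives and that of Sema3e when the GC and length trend was removed (log2 fold change -0.029). Sema3g, Sema4b, the immune semaphorin Sema4d, Sema4f, Sema4g and Sema7a did not pass, with log2 fold changes between -0.22 and 0.87. Sema4a (0.243 to 0.594 CPM) and Sema6b (0.210 to 0.705 CPM) were under the count filter.

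Of the plexins and neuropilins all 9 were tested, 1 rose and 2 fell. Nrp1, the co-receptor of Sema3a and of VEGF, had 30.7, 30.5 and 30.3 CPM in the I/R libraries and 43.1, 43.6 and 44.8 CPM with chemerin-9. The libraries within each group were almost equal and the groups did not overlap (edgeR log2 fold change 0.52, SE 0.06, adjusted p = 4.86e-06; chr8:128358604-128503363, GRCm38). Its paralogue Nrp2, more abundant per length, had 234, 215 and 232 CPM in the I/R libraries and 251, 242 and 237 CPM with chemerin-9 and did not pass, though its groups did not overlap (edgeR log2 fold change 0.10, SE 0.04, adjusted p = 0.0529; 95% interval 0.01 to 0.19). Plxnb2 had 738, 724 and 722 CPM in the I/R libraries and 623, 617 and 580.0 CPM with chemerin-9. All 3 chemerin-9 libraries lay below all 3 I/R libraries (edgeR log2 fold change -0.26, SE 0.03, adjusted p = 9.18e-06). Plxnd1, the plexin of Sema3e and an endothelial guidance receptor, had 66.8, 73.7 and 62.8 CPM in the I/R libraries and 56.0, 56.7 and 56.9 CPM with chemerin-9. It fell by a like amount (edgeR log2 fold change -0.26, SE 0.06, adjusted p = 0.0023).

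The A-type plexins that pair with neuropilins, and plexin B1, the receptor of Sema4d, did not pass. The log2 fold change was -0.02 for Plxna1 (95% interval -0.11 to 0.07), -0.02 for Plxna3 (-0.11 to 0.08) and -0.05 for Plxnb1 (-0.21 to 0.11), so a change of 1.5-fold lay outside the interval of each. Plxna2 (0.31, 0.04 to 0.59) and the weak Plxnc1 (0.87, 0.03 to 1.70) had wider intervals that reached 1.5-fold. Of the exonic bases of Plxna1, 10.7% are shared with a gene on the opposite strand.

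Of the 8 Eph receptors with a row 7 were tested, 2 rose and 2 fell. Epha2, which is widespread in epithelia and cultured cells, had 211, 212 and 213 CPM in the I/R libraries and 186, 189 and 174 CPM with chemerin-9. The I/R libraries were nearly equal and all 3 chemerin-9 libraries were lower (edgeR log2 fold change -0.21, SE 0.04, adjusted p = 3.16e-04). Ephb4, the receptor of ephrin-B2 known from veins, had 62.2, 60.1 and 68.9 CPM in the I/R libraries and 47.7, 48.6 and 44.3 CPM with chemerin-9. It fell by more (edgeR log2 fold change -0.45, SE 0.06, adjusted p = 3.53e-05; chr5:137350109-137378669, GRCm38). Epha1, the first Eph receptor to be cloned, was weak and had 2.58, 2.53 and 3.16 CPM in the I/R libraries and 4.62, 4.57 and 5.25 CPM with chemerin-9. It rose without overlap (edgeR log2 fold change 0.80, SE 0.19, adjusted p = 0.0032). Of its exonic bases 6.0% are shared with Zyx on the opposite strand, which held 166.6 ± 8.96 CPM in I/R and 167.0 ± 5.32 with chemerin-9. Epha7 had 22.6, 19.6 and 21.9 CPM in the I/R libraries and 28.6, 24.5 and 22.9 CPM with chemerin-9. Its lowest chemerin-9 library was just above its highest I/R library, and the call was marginal (edgeR log2 fold change 0.24, SE 0.10, adjusted p = 0.0498).

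The Epha7 call was lost under 8 of its 14 alternatives, with an adjusted p of 0.0321 to 0.479 over all of them. They were DESeq2 (0.124), limma-voom (0.0593), the filter at 1 CPM (0.0503), the GC and length trend removed (log2 fold change 0.087), and leaving out I/R replicate 1 (0.0519), I/R replicate 2 (0.178), chemerin-9 replicate 1 (log2 fold change 0.14, 0.254) or chemerin-9 replicate 2 (0.0803). Ephb2, Ephb3 and Epha4 did not pass, with log2 fold changes of 0.17 (95% interval -0.0042 to 0.35), -0.15 (-0.31 to 0.01) and 0.12 (-0.12 to 0.37). Ephb6, a receptor without kinase activity, was under the count filter at 0.121 to 0.958 CPM.

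All 8 ephrins with a row were tested, 2 of the B type rose and 2 of the A type fell. Efnb3, a midline barrier of the spinal cord, was weak and had 3.44, 2.90 and 2.79 CPM in the I/R libraries and 6.54, 6.93 and 5.95 CPM with chemerin-9. It rose the most of all tested guidance genes that passed (edgeR log2 fold change 1.09, SE 0.17, adjusted p = 1.02e-04). Efnb2, the arterial ephrin, had 30.1, 31.1 and 33.9 CPM in the I/R libraries and 44.8, 45.6 and 42.5 CPM with chemerin-9. Its groups lay well apart (edgeR log2 fold change 0.48, SE 0.07, adjusted p = 3.19e-05; chr8:8617434-8661242, GRCm38). The third B ephrin, Efnb1 on chromosome X, did not pass (-0.11, 95% interval -0.42 to 0.20).

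Efna5, a ligand used in mapping of the visual system, had 25.8, 28.4 and 28.2 CPM in the I/R libraries and 21.2, 23.8 and 23.1 CPM with chemerin-9. It fell modestly without overlap (edgeR log2 fold change -0.27, SE 0.08, adjusted p = 0.0107). Efna1, the ligand of EphA2, had 8.06, 9.44 and 9.22 CPM in the I/R libraries and 7.50, 6.49 and 6.29 CPM with chemerin-9. It fell (edgeR log2 fold change -0.41, SE 0.14, adjusted p = 0.022), a call that was lost with DESeq2 (adjusted p = 0.0949) and without I/R replicate 2 (0.0674), chemerin-9 replicate 2 (0.0665) or chemerin-9 replicate 3 (0.0796), with adjusted p-values from 0.0169 to 0.0949 in the 14 alternatives. Efna1, Efna3 and Efna4 lie side by side on chromosome 3, with gaps of 32.8 and 10.4 kb, and the latter pair did not pass, at -0.16 (-0.97 to 0.65) and 0.20 (-0.27 to 0.66). Efna2 did not pass although its groups did not overlap (edgeR log2 fold change -0.50, SE 0.23, adjusted p = 0.0897). On the per-length scale Efnb2 made up 24.4% ± 0.288 in I/R and 33.5% ± 1.44 with chemerin-9 of all ephrin transcripts (SD, n = 3 each), while their total held 27.1 ± 1.49 and 27.6 ± 0.788 CPM per kb.

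Of the slit and Robo genes 2 of 3 were tested and 1 rose. Slit2, the repellent that binds Robo and is cut into fragments after secretion, had 206, 199.9 and 181 CPM in the I/R libraries and 286, 282 and 287 CPM with chemerin-9. The chemerin-9 libraries were nearly equal and far above the I/R libraries (edgeR log2 fold change 0.54, SE 0.04, adjusted p = 1.14e-07; chr5:47983138-48307733, GRCm38). Slit1 was under the count filter at 0.420 to 1.04 CPM. Of the summed Slit1 and Slit2 level per length, Slit2 made up 98.98% to 99.71% in each library. Its receptor Robo2 had 2.58, 1.78 and 2.61 CPM in the I/R libraries and 3.66, 2.65 and 2.31 CPM with chemerin-9. The groups overlapped and the gene did not pass (edgeR log2 fold change 0.28, SE 0.26, adjusted p = 0.379), with a 95% interval of -0.27 to 0.83 that holds the change of Slit2.

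Of the netrin and Unc5 genes 3 of 5 were tested, none rose and 2 fell, where 25.6% of all tested genes were higher and 26.1% lower. With only 3 tested genes these counts do not describe a pattern of the family. Unc5b, a netrin receptor that also restrains vessel branching, had 121, 122 and 119.7 CPM in the I/R libraries and 90.5, 86.8 and 89.9 CPM with chemerin-9. The libraries within a group were close and the groups lay apart (edgeR log2 fold change -0.44, SE 0.04, adjusted p = 5.22e-07; chr10:60762593-60831581, GRCm38). Ntn4, a netrin of basement membranes, had 13.4, 12.8 and 12.2 CPM in the I/R libraries and 9.06, 7.66 and 8.32 CPM with chemerin-9. All 3 chemerin-9 libraries were below the I/R libraries (edgeR log2 fold change -0.62, SE 0.12, adjusted p = 4.44e-04). Ntn1, the netrin that binds Unc5b and DCC, had 16.4, 16.1 and 16.2 CPM in the I/R libraries and 15.5, 16.5 and 16.0 CPM with chemerin-9 and did not pass (log2 fold change -0.02, 95% interval -0.21 to 0.18, with a sign that turned under 2 alternatives). Ntn3 (0.349 to 0.783 CPM) and Ntn5 (0.0607 to 0.523 CPM) were under the count filter.

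**Figure D3:**
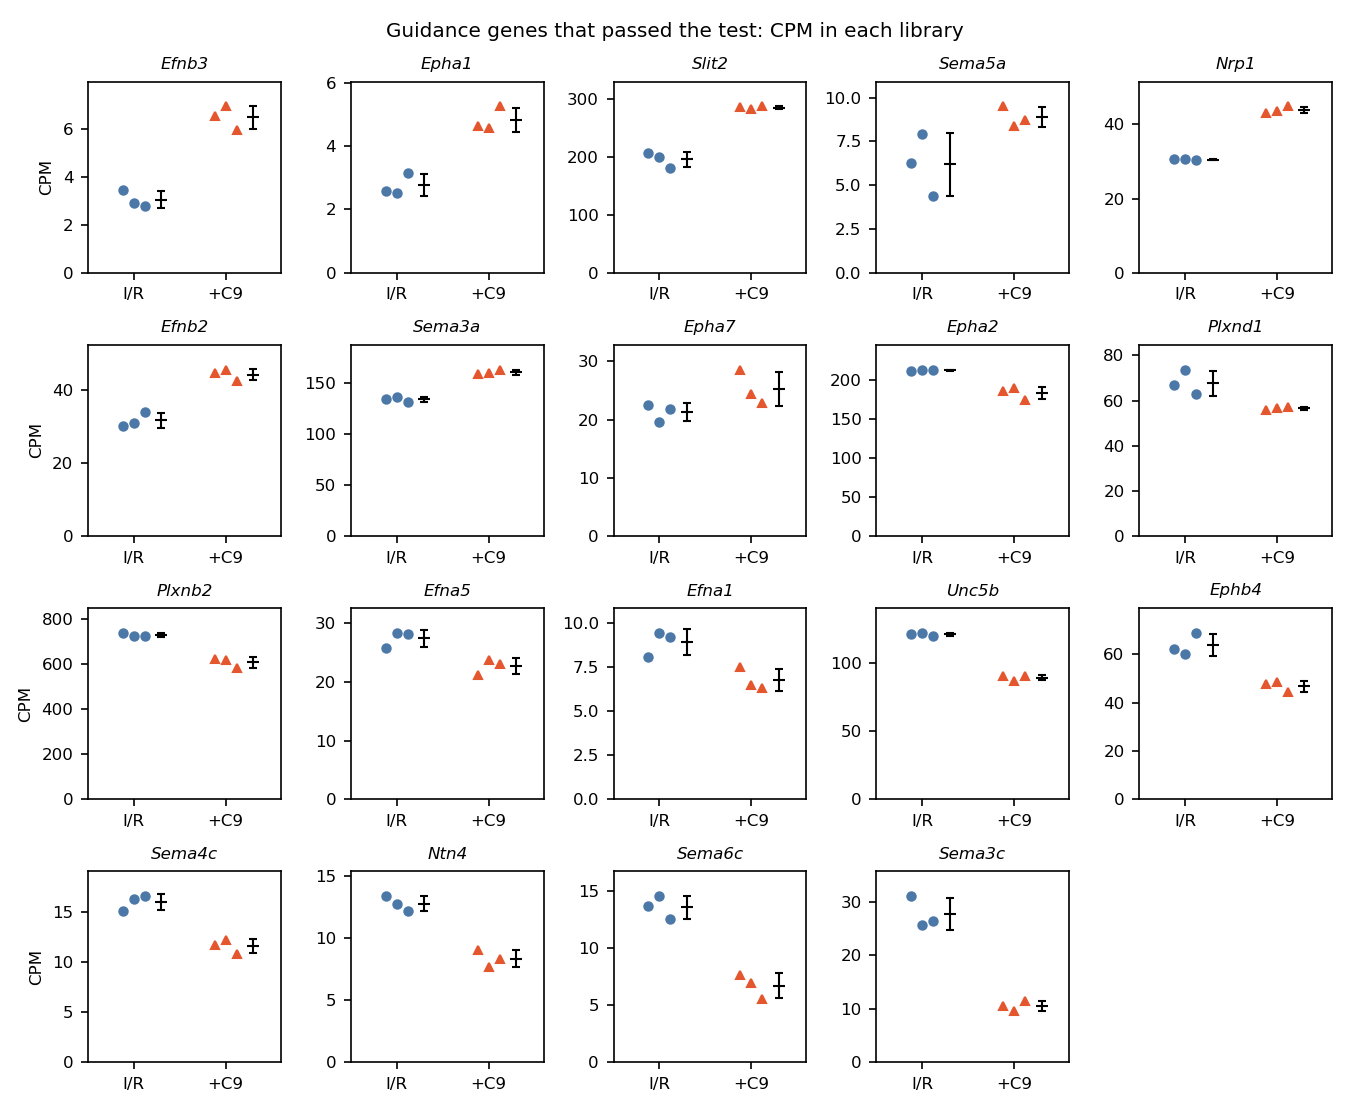
CPM of the 19 guidance genes that passed the test, 1 panel per gene ordered from the largest rise to the largest fall, with the vertical axis starting at 0, points for libraries and bars for mean ± SD (n = 3 each). In every panel the 3 chemerin-9 libraries (+C9, triangles) lie outside the range of the 3 I/R libraries (circles), narrowly so for Epha7 and Sema5a.

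For partners, the ratio of raw counts within a library does not depend on how libraries are scaled. The pairs were chosen after the values were seen, so these ratios carry no test. The ratio of Efnb2 to Ephb4 was 0.484, 0.517 and 0.492 in I/R and 0.940, 0.938 and 0.959 with chemerin-9. No library of one group approached the other group. Nrp1 to Nrp2 gave 0.131, 0.142 and 0.131 in I/R and 0.172, 0.180 and 0.189 with chemerin-9, also without overlap. Sema3c to Sema3a gave 0.231, 0.188 and 0.201 in I/R and 0.0659, 0.0607 and 0.0705 with chemerin-9. The ratio of the netrin Ntn1 to its receptor Unc5b was 0.135, 0.132 and 0.135 in I/R and 0.171, 0.190 and 0.178 with chemerin-9. The ratio of Sema3e to Plxnd1 was 1.03, 0.968 and 1.04 in I/R and 1.33, 1.32 and 1.30 with chemerin-9. Other ratios of a ligand gene to a receptor gene were lower with chemerin-9, also without overlap. Ntn4 to Unc5b gave 0.110, 0.105 and 0.102 in I/R and 0.100, 0.0883 and 0.0926 with chemerin-9, and binding between these proteins was not tested. Sema4c to Plxnb2 gave 0.0205, 0.0226 and 0.0230 in I/R and 0.0189, 0.0198 and 0.0187 with chemerin-9. Sema3a to Nrp1 gave 4.38, 4.45 and 4.31 in I/R and 3.68, 3.65 and 3.63 with chemerin-9. The ratio of Slit2 to Robo2 overlapped between the groups, at 79.8, 112 and 69.5 in I/R and 78.1, 106 and 124 with chemerin-9, where the few Robo2 counts (24 to 43 per library) limit its precision.

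**Figure D4:**
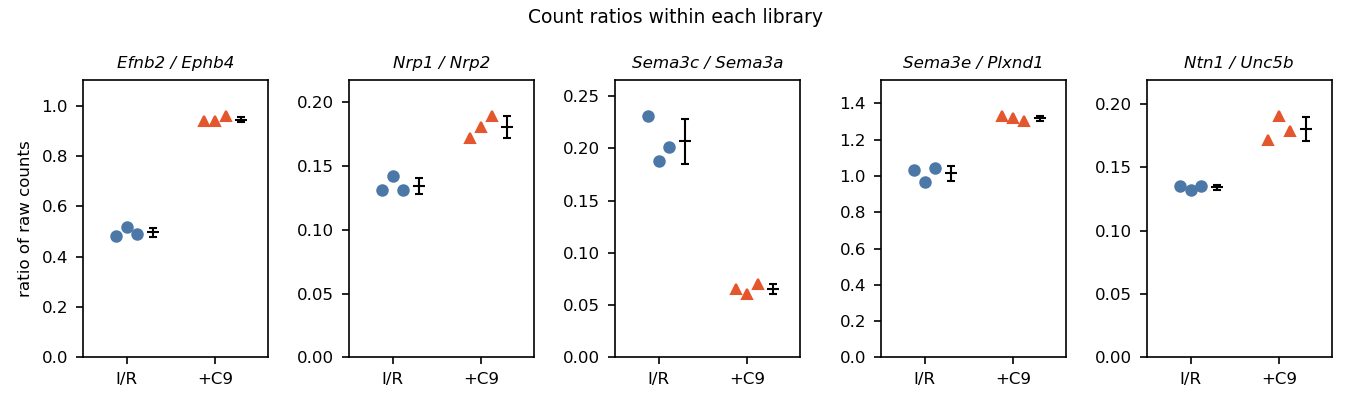
Ratio of raw counts within each library for a selection of the pairs of guidance partners or paralogues, with points for libraries and bars for mean ± SD (n = 3 each) on axes that start at 0. The ligand and receptor pairs shown had higher ratios with chemerin-9, and those not shown had lower or overlapping ratios. Efnb2 to Ephb4 was 0.498 ± 0.0171 in I/R (circles) and 0.946 ± 0.0117 with chemerin-9 (+C9, triangles), and Sema3c to Sema3a was 0.207 ± 0.0219 and 0.0657 ± 0.00492.

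Of the 24 tested guidance genes that did not pass, 15 had a 95% interval that lay within a 1.5-fold change in either direction, so a larger change lay outside their intervals. The other 9, among them Robo2, Plxna2, Plxnc1, Efna2, Efna3 and Efna4, had intervals that reached 1.5-fold, so a change of that size lay within their intervals. The tested genes with the fewest counts were Sema4f (88 counts over the 6 libraries), Plxnc1 (97) and Sema4g (104), and the untested gene with the most counts was Slit1 (55).

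Signal transducers and co-receptors of these pathways were counted from a list of 120 genes, of which 99 had a row and 96 were tested. Of these 30 rose and 26 fell, or 58.3% against 51.7% of all tested genes, and 11 of the 96 changed at least 1.5-fold, against 15.9%. The median log2 fold change was 0.047. In the semaphorin and plexin list 11 of 26 rose and 7 fell. Dpysl2, which encodes the microtubule-binding mediator CRMP2 of semaphorin 3A, fell from 157 ± 13.2 to 78.7 ± 4.90 CPM (mean ± SD, n = 3 each), a log2 fold change of -0.996 with a standard error of 0.06 (edgeR, adjusted p = 6.27e-09). Its relative Dpysl3 fell from 372 ± 9.58 to 252 ± 6.66 CPM (log2 fold change -0.56). Mical2, of the family of enzymes that oxidise actin downstream of plexins, rose from 50.5 ± 2.28 to 94.4 ± 5.54 CPM (log2 fold change 0.90).

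In the ephrin and Eph list 5 of 27 tested genes rose and 7 fell. Inppl1, a lipid phosphatase that binds EphA2, fell from 145 ± 5.09 to 94.3 ± 4.995 CPM (log2 fold change -0.62), the scaffold gene Itsn1 fell (log2 fold change -0.26) and its paralogue Itsn2 rose (0.27). After removal of the trend with GC content and length these were -0.37 and 0.18. In the slit and Robo list 3 of 13 rose and 6 fell, beside 25.6% higher and 26.1% lower over all tested genes. Vasp, an actin filament elongation factor, fell from 78.4 ± 1.24 to 44.8 ± 2.87 CPM (log2 fold change -0.81). Myo9b, an unconventional myosin, fell from 160.3 ± 7.01 to 105 ± 3.02 CPM (-0.61), and Flrt2, a membrane protein that binds Unc5 receptors, rose from 7.36 ± 0.613 to 16.3 ± 1.37 CPM (1.14). The other Ena and VASP family member in the list that passed, Evl, fell by 0.33 on the log2 scale, and Enah did not pass (-0.0005, 95% interval -0.08 to 0.08).

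In the netrin and Unc5 list 4 of 12 rose and 2 fell, beside 25.6% higher and 26.1% lower over all tested genes. Maged1, which binds Unc5 receptors and takes part in cell death, fell from 448 ± 14.7 to 249 ± 4.66 CPM with a log2 fold change of -0.85 (edgeR, adjusted p = 1.11e-10), the smallest adjusted p of the 96. The actin-binding gene Ablim1 rose by 0.49 and the exchange factor gene Trio by 0.30 on the log2 scale, while the netrin receptor Neo1 did not pass (0.07, 95% interval -0.01 to 0.15). Among 18 shared cytoskeletal genes 7 rose and 4 fell. Nckap1, of the WAVE complex that starts actin branches, rose from 151 ± 4.01 to 214 ± 7.24 CPM and the GTPase gene Cdc42 from 357 ± 10.0 to 471 ± 9.65 CPM, and the GTPase gene Rhoa fell from 396 ± 29.3 to 291 ± 7.96 CPM. The log2 fold changes were 0.51, 0.40 and -0.44. Rhoa has transcripts of other genes that match it at 95% identity or more, so its counts are uncertain.

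Several of these receptors are best known from endothelium or nerve, and the summed levels of markers of those cells differed between the groups. The summed level of the 5 endothelial markers with a row was 5.56 to 5.83 CPM in I/R and 9.51 to 11.3 CPM with chemerin-9. Of the 5, only 1 passed the count filter and was tested, and it rose. Most of the sum was Flt1, a VEGF receptor, which rose (4.81 ± 0.423 to 9.26 ± 1.06 CPM), and the other 4, Pecam1, Cdh5, Tek and Cldn5, averaged under 1 CPM. Neuron and Schwann cell markers summed to 12.3 to 13.6 and 5.23 to 7.06 CPM, which was mostly the tubulin gene Tubb3, at 9.81 ± 0.812 and 2.64 ± 0.219 CPM. Of these 4, 2 were tested, of which 1 fell and none rose. S100b and Syt1 were under the count filter, at 0 to 0.157 and 0 to 0.87 CPM over all libraries. Fibroblast and pericyte markers summed to 2690 to 2816 and 2137 to 2218 CPM, with 2 of the 8 tested higher and 3 lower. The sums of the other lists did not overlap between the groups either. Such a lack of overlap was found for 58.5% of all tested genes taken singly. The 3 podocyte markers with a row summed to 17.1 to 18.2 CPM in I/R and 26.4 to 28.5 CPM after chemerin-9, and both that were tested rose. Nephron markers summed to 71.7 to 75.8 and 55.1 to 64.1 CPM, with 1 of the 5 tested higher and 1 lower. The largest part of that sum was Pax8, which fell (45.5 ± 1.65 to 29.6 ± 3.17 CPM). Fxyd4 rose, and Lrp2, Cubn and Aqp1 did not pass. Leukocyte markers summed to 60.1 to 63.4 and 50.5 to 54.1 CPM, and most of that sum was Cd74. Of the 3 tested, 1 was lower and none higher. Beside these counts, 25.6% of all tested genes were higher and 26.1% lower. The part of these cells in the results was not tested.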

How the data were processed

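Per the labels' protocols, RNA came from a Qiagen extraction and went into a stranded mRNA kit from Vazyme. The submitters' processing notes name HISAT2, HTSeq, DESeq 1.18.1 and mm10. No label or header gives the annotation release or the strand setting. The deposited table holds raw counts per gene symbol made by the authors, with no normalization judging by the values, and also a log2 value and a linear ratio of the change, a p-value and an FDR from the authors' own comparison. There, in the authors' deposited table, the guidance genes included 16 with an FDR under 0.05, all of them among the 19 called here. Of 25216 rows, 27 repeated another row and were dropped. Of the genes found in GENCODE M21 (GRCm38), 97.5% had the start given in the table.

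The test was run in edgeR 4.0.16 (R 4.3.3) (TMM size factors, filterByExpr by group, quasi-likelihood fit on group). Standard errors were taken as the fold change over the square root of F. CPM use the TMM-adjusted library size with SDs over 3 libraries. Between libraries of a group the biological coefficient of variation came to 5.18%. Alternatives were RLE and upper-quartile size factors, 2 other filters, DESeq2 1.42.0, limma-voom (limma 3.58.1), each library left out, a block on replicate number, a threshold of 0.01, and removal of a trend with GC content and length for the 13651 genes with a transcript. The script was tested on simulated counts. The guidance genes, effector list and marker lists were chosen with earlier results of these data known. Genes named with a value in every library were the up to 4 with the smallest adjusted p and the 1 with the highest level in each of 6 families, plus the 8 largest rises and the 8 largest falls that passed. Effectors were named by the 3 smallest adjusted p-values in each list. Zyx and Evl were added after their values were seen. So were Enah, Neo1, Sema3e and the other genes that did not pass and lay outside these rules. A search of GENCODE transcripts at 95% identity over at least 200 bases and 50% of the shorter transcript found a copy for 1 of the 49, Sema3a.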

Additional observations from a re-analysis of the deposited data

How the results depend on the processing

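Of the 19 guidance genes that passed, 16 kept their direction and an adjusted p under 0.05 in all 14 alternative fits, and Efna1, Epha7 and Sema5a did not, with the values given above. The number of guidance genes higher with chemerin-9 was 8 and lay between 6 and 11 across the alternatives, and the number lower was 11 and lay between 9 and 11. Both leave-one-out ranges lie within these, at 6 to 10 and 10 to 11. For the effector list the counts of 30 higher and 26 lower lay between 24 and 32 and between 20 and 26. With the replicate number as a block the counts were 8 and 11 for guidance genes and 31 and 25 for effectors, and it changed no call of a guidance gene. The correlations of deviations between same-numbered libraries were 0.102, -0.052 and 0.042, and those between differently numbered libraries ran from -0.14 to 0.108. Whether same-numbered libraries share more than a number cannot be told from these values. Genes that did not pass at first and passed elsewhere were Nrp2, Plxna2 and Sema3e with upper-quartile factors, Ephb2, Plxnc1 and Sema3e without I/R replicate 2, Nrp2 without I/R replicate 1 or 3, Efna2 and Sema4f without chemerin-9 replicate 3, and Sema3b and Sema4f after removing the GC and length trend. The share of all tested genes called fell to 37.8% with DESeq2 and to 31.5% with no filter, where 24567 genes were tested.

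The sign turned for 8 genes that passed in neither fit, and the cause was not tested. After removing the GC and length trend, the log2 fold change was 0.037 for Ntn1, 0.0022 for Plxna1, -0.029 for Sema3e and 0.084 for Sema3f. For Sema3f it was 0.0063 with upper-quartile factors, 0.0038 with limma-voom, and with each library left out in turn it ran from -0.11 to 0.084. The same leave-one-out range was -0.47 to 0.16 for Efna3, -0.040 to 0.0015 for Ntn1, -0.039 to 0.015 for Plxna1, -0.22 to 0.025 for Sema4b, -0.11 to 0.074 for Sema4d and -0.058 to 0.37 for Sema7a. Intervals of 9 genes that did not pass reached 1.5-fold.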
